A study of Mus musculus with 11 samples.

Results

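The comparison described here set nucleus accumbens of mice given a virus that overexpressed E2F3a against nucleus accumbens of mice given a virus that overexpressed GFP, both under saline. It covers all 14667 genes of the authors' deposited table for that contrast, which is every gene tested in the series, and uses 8 of the 11 libraries. Both groups were C57/BL6 mice treated with saline, with 4 libraries each and 1 mouse per library, so the groups differ by label only in the overexpressed gene. The remaining 3 libraries, from GFP mice given cocaine, form no group of this contrast, but the authors' fit appears to be shared with them, so they enter the mean expression values and the estimate of the spread behind each error and p. The virus type, its promoter, the cells it entered, the share of the dissected tissue that carried it and the age and sex of the mice appear in no source used here. The question, as far as the labels state it, is how poly-A RNA levels in the accumbens differ when E2F3a is overexpressed without cocaine.

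E2F3 is a transcription factor of the E2F family, which binds DNA together with a DP partner and is held in check by the pocket proteins Rb1, Rbl1 and Rbl2. In dividing cells, cyclin-dependent kinases release E2F factors from the pocket proteins, and the freed activator E2Fs switch on genes of DNA replication and of entry into S phase. The gene makes a pair of proteins, E2F3a from the upstream start and E2F3b from a start inside the gene. Most cells of the adult nucleus accumbens, a ventral striatal region of dopamine-responsive medium spiny neurons, do not divide.

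The E2f3 starts are shown because the virus carries the product of the upstream one, while the deposited gene value does not separate E2F3a from E2F3b. E2f3 lies on the minus strand of mouse chromosome 13, from 29906575 to 29986063 in the mm10 build. Its 2 RefSeq starts lie 1672 bases apart, and both match a transcript start of the gene annotation. The 250 bases before each start, from RefSeq on GRCm38.p6 and written 5′ to 3′ on the minus strand, are chr13:29986064-29986313 for the upstream start and chr13:29984392-29984641 for the inner one. Capitals mark the E2F word searched, and the inner sequence holds none of the searched E2F words but an E-box, left in lower case.
E2f3 upstream start: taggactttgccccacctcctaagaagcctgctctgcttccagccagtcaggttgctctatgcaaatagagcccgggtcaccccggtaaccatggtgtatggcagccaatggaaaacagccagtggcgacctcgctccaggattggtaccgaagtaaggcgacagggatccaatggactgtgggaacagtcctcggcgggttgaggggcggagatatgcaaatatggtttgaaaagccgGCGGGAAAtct
E2f3 inner start: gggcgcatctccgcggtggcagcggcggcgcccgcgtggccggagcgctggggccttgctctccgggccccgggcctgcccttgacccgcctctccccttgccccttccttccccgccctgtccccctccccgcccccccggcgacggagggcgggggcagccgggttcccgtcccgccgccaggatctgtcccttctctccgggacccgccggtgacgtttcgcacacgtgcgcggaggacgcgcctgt

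Of the genes with small unadjusted p-values, 3 are shown with a word that a search of their promoters found. Btg2 and Ppp1r15a, both among the lower genes, hold the cAMP response element TGACGTCA, to which CREB family factors bind. Per1, among the higher genes, holds the E-box CACGTG, to which CLOCK and BMAL1 bind. The sequences are the 250 bases before the RefSeq start on GRCm38.p6, chr1:134079156-134079405 on the minus strand for Btg2, chr7:45526269-45526518 on the minus strand for Ppp1r15a and chr11:69098699-69098948 on the plus strand for Per1. For Btg2 and Per1 the RefSeq start is not a transcript start of the gene annotation. Capitals mark the response element or the E-box, and the Ppp1r15a sequence also holds the GATA factor word GATAAG, left in lower case.
Btg2: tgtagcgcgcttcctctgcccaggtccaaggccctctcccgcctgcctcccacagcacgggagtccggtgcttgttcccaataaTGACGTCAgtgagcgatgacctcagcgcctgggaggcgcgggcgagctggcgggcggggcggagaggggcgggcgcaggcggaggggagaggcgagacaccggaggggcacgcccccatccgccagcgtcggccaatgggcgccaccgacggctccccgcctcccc
Ppp1r15a: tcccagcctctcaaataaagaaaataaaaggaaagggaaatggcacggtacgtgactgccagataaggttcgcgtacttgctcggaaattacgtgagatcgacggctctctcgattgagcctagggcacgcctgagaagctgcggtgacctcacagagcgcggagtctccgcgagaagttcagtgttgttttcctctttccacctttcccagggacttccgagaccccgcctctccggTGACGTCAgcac
Per1: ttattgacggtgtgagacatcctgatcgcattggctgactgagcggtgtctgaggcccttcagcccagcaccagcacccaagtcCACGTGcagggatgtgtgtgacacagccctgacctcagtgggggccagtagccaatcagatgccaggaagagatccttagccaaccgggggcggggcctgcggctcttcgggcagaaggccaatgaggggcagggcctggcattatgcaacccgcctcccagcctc

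In the authors' deposited table no gene passed an adjusted p of 0.05 in their moderated test (0% of 14667 genes), and the smallest adjusted p was 1.00. At an unadjusted p under 0.05 the same test listed 140 genes (0.955%), of which 80 were higher with E2F3a (0.545%) and 60 lower (0.409%). Genes are therefore given below by their estimates and errors, and no gene is said to have changed. The table holds a log2 fold change, a mean expression and test statistics per gene, with no value per mouse, so the spread of single mice, any overlap of the groups and the depth of the libraries are unknown. Errors written with ± are standard errors on the log2 scale, obtained as the log2 fold change divided by its t.

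The differences were small for most genes. The log2 fold changes in the authors' deposited table had a median of 0.01 and quartiles of -0.08 and 0.10, with the 5th percentile at -0.24 and the 95th at 0.31. Their median size, without sign, was 0.0868, below the median standard error of 0.144. For 13321 genes (90.8%) the whole 95% interval lay within 2-fold either way, and for 10650 genes (72.6%) it lay within 1.5-fold. For the 11000 genes expressed above the 25th percentile, a mean log2 expression of 3.21, these shares were 97.2% and 84.3%. Among the 3667 genes below it they were 71.7% and 37.7%, so a difference of 1.5-fold was outside the interval for most expressed genes and inside it for most weakly expressed ones. Of the 94 genes with an estimate beyond 2-fold, 88 were below that percentile.

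**Figure D1:**
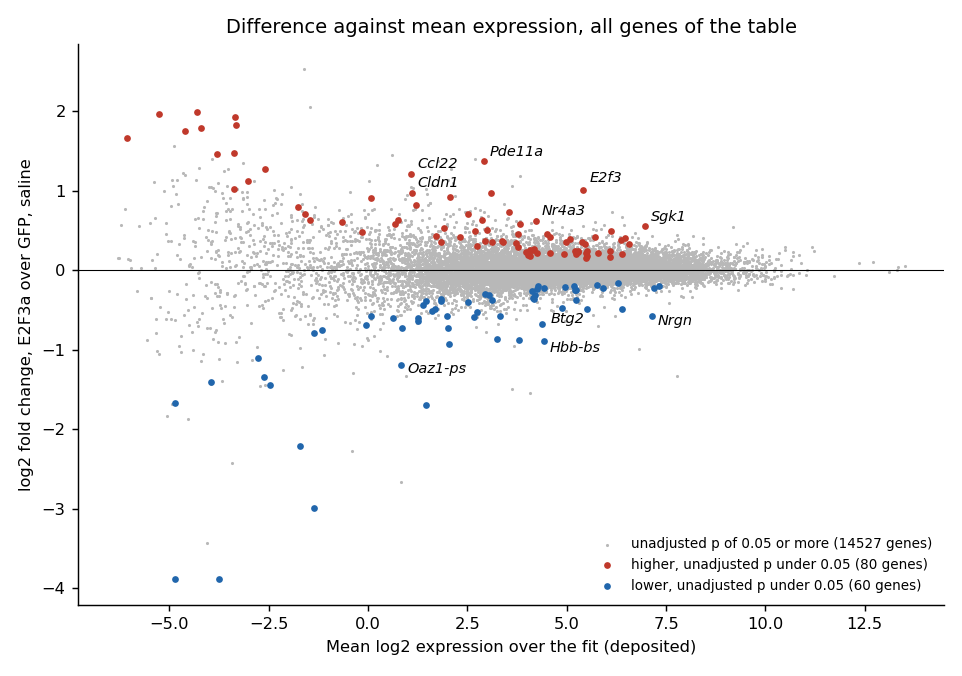
Log2 fold change, E2F3a over GFP under saline, against mean log2 expression for the 14667 genes of the authors' deposited table. Each point is a gene; red and blue points are the 80 higher and 60 lower genes at an unadjusted p under 0.05, none of which passed an adjusted p of 0.05. The spread widens toward low expression, and E2f3 lies at 1.01, as 1 of 6 genes beyond 2-fold above the 25th percentile of expression.

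E2f3 itself had the smallest unadjusted p of all genes. The authors' deposited table lists its log2 fold change at 1.01 ± 0.20, a 2.02-fold difference with a 95% interval from 0.57 to 1.45 and an unadjusted p of 0.000337 in their moderated test. The direction is that of the virus label. Reads from the virus and from the mouse gene cannot be told apart in a gene total. In the comparison of cocaine with saline among GFP mice, which shares the GFP saline controls and holds no E2F3a virus, the authors' deposited table lists E2f3 at -0.08. The 8 genes of the table within 1000 kb of E2f3 ran from Irf4 at -0.26 to Sox4 at 0.19, and none had an unadjusted p under 0.05, so the E2f3 estimate was not shared by its neighbours.

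The rest of the E2F family stood close to GFP. Of the 9 measured E2F factors and DP partners, 1 had an unadjusted p under 0.05, which was E2f3. Tfdp1 and Tfdp2, the DP partners that E2F factors need to bind DNA, were listed by the authors' deposited table at 0.05 ± 0.07 and 0.08 ± 0.10. E2f1, an activator E2F, stood at -0.08 ± 0.15 there, and E2f4, a repressor abundant in resting cells, at -0.09 ± 0.10. E2f2, also an activator, had the largest remaining estimate of the family and a wide error, -0.42 ± 0.27 in the authors' deposited table. Among E2F family members, then, E2f3 alone had an interval that lay clear of 0.

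Among the pocket proteins and regulators of G1, 10 of 20 measured genes had an estimate above 0, with a median of -0.01 beside 0.01 over all genes. Of these 20, 1 was higher at an unadjusted p under 0.05 and none was lower. That gene was Skp2, the F-box protein that marks the kinase inhibitor p27 for degradation and a known E2F target in dividing cells. The authors' deposited table lists Skp2 at 0.35 ± 0.12, a 1.27-fold difference with an unadjusted p of 0.0140 in their moderated test, beside 0.17 in the cocaine comparison. Cdkn1b, which encodes p27, stood at -0.04 ± 0.07 in the authors' deposited table. Of the pocket proteins, the authors' deposited table lists Rb1 at 0.15 ± 0.11 and Rbl2 at 0.10 ± 0.09. The D-type cyclins, which drive the kinases that act on Rb1, were near 0, with Ccnd1 at 0.04 ± 0.24 and Ccnd2 at 0.01 ± 0.22 in the authors' deposited table. Cdkn2c and Cdkn2d, inhibitors of those kinases, were listed there at -0.33 ± 0.24 and -0.21 ± 0.12.

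The genes of DNA replication, the classical targets of activator E2Fs, did not stand higher with E2F3a. Of 31 measured, 2 had an estimate above 0 (6.45%, beside 52.5% over all genes) and none passed an unadjusted p of 0.05. The median was -0.12 beside 0.01 over all genes. For all 31 the upper end of the 95% interval lay below 1.5-fold higher. Mcm5, part of the replicative helicase, was listed by the authors' deposited table at -0.15 ± 0.16 and Pcna, the polymerase clamp, at -0.12 ± 0.16. Rrm1 and Rrm2, which together make deoxynucleotides, stood at -0.16 ± 0.13 and -0.27 ± 0.28 there. The lowest of the list were Cdt1, which loads the helicase, at -0.30 ± 0.23 and Chaf1b, which deposits histones on new DNA, at -0.38 ± 0.29, both in the authors' deposited table. The 95% interval of every one of the 31 replication genes included 0.

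The mitosis genes lay lower still as a list. None of the 27 measured had an estimate above 0 and none passed an unadjusted p of 0.05, with a median of -0.30. For 26 of them the interval ended below 1.5-fold higher, and for 23 it lay within 2-fold either way. In the authors' deposited table Aurka, a spindle kinase, was listed at -0.31 ± 0.19, Birc5, survivin, at -0.47 ± 0.30, Ccnb1, the mitotic cyclin, at -0.41 ± 0.31, and Mki67, the common proliferation marker, at -0.08 ± 0.30. In the cocaine comparison, which uses the same GFP saline libraries as its reference, the median of the 27 was -0.87 and that of the replication genes was -0.48. Both comparisons are read against the same 4 control libraries, so their directions are not separate observations. In bulk tissue, fewer cells of a type and less RNA per cell cannot be told apart.

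**Figure D2:**
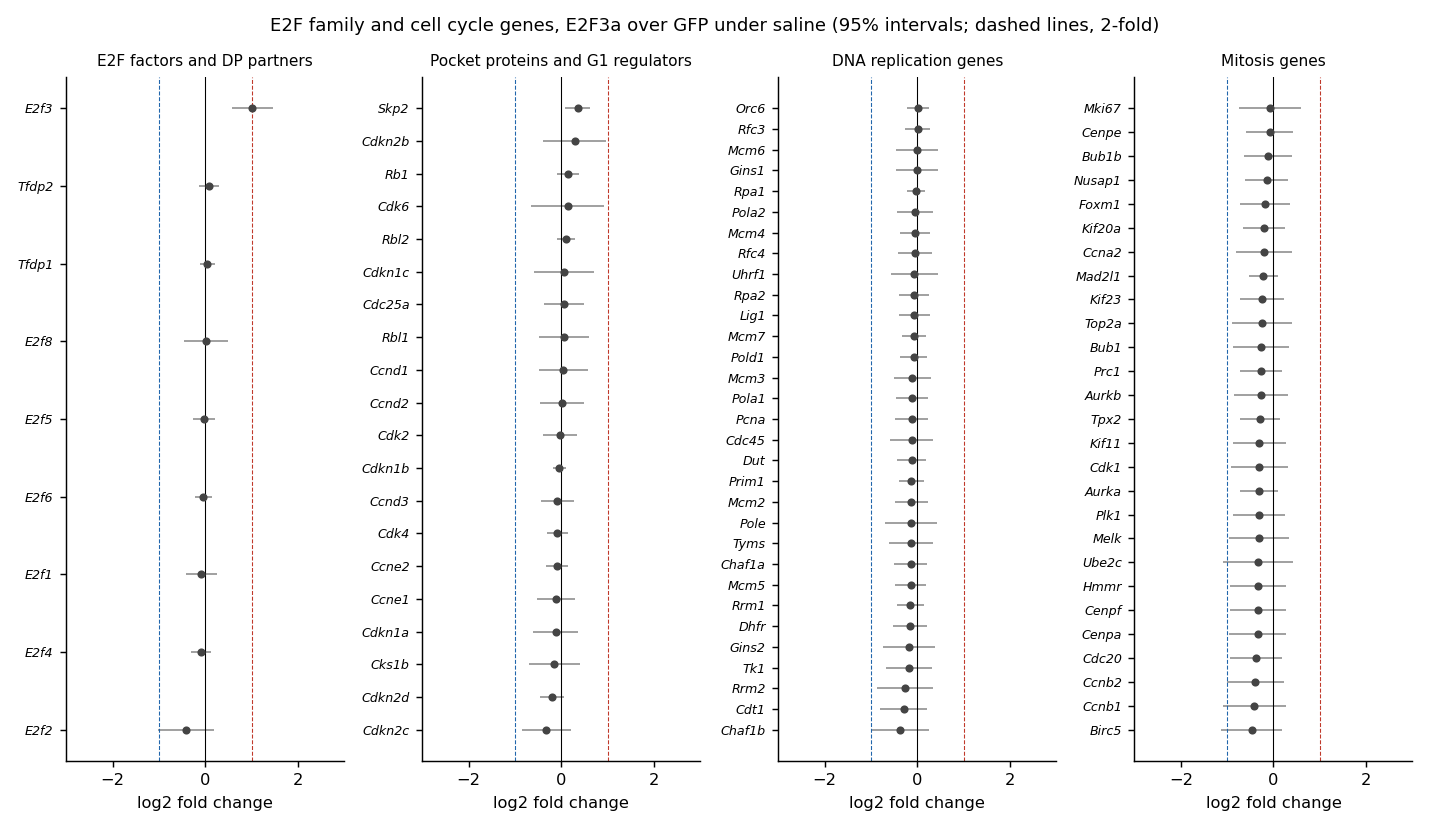
Log2 fold changes of E2F factors and DP partners, pocket proteins and G1 regulators, DNA replication genes and mitosis genes, E2F3a over GFP under saline, in the authors' deposited table. Points are estimates, bars are 95% intervals and dashed lines mark 2-fold either way; E2f3 at 1.01 is the only point near the upper line, and all 27 mitosis points lie below 0.

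Promoters were searched for E2F words on both strands, in the window from 250 bases before to 50 bases after the most upstream RefSeq start. The words were TTTGGCGC, TTTCCCGC, TTTCGCGC and TTTGCCGC. Of 10351 genes with a promoter in the reference, 404 (3.90%) held at least 1. Of the 49 genes with a promoter that were higher at an unadjusted p under 0.05, 1 held such a word, and that gene was E2f3; of the 38 lower ones none did. The words were found in 8 of 26 replication genes (30.8%), whose median log2 fold change was -0.10 beside -0.12 for the replication genes without one. A match describes letters only and marks no binding site.

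The cAMP response element TGACGTCA was found in 337 promoters (3.26%), in 4 of the 38 lower genes (10.5%) and in 1 of the 49 higher ones. The 4 were Btg2 and Ppp1r15a, printed above, with Irf2bpl and Sstr2, and the 1 was Btaf1. The E-box CACGTG was found in 1045 promoters (10.1%), in 7 of the 49 higher genes (14.3%) including Per1, and in 2 of the 38 lower ones. The word GATAAG, bound by GATA factors, was found in 479 promoters (4.63%) and in 9 of the 38 lower genes (23.7%), of which 4 were globin genes, an alpha pair and a beta pair that share sequence within each pair. These shares are descriptions of small sets chosen by p in the contrast itself and were given no test.

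Past E2f3, the higher genes with the smallest unadjusted p-values had modest estimates. Nr4a3, an orphan nuclear receptor induced by neuronal activity, was listed by the authors' deposited table at 0.62 ± 0.20, 1.53-fold. Golim4, a Golgi membrane protein, and Dbndd2, abundant in oligodendrocytes, each stood at 0.24 in the authors' deposited table, with errors of 0.07 and 0.08, and reached small p-values through narrow errors. Zfp189, a zinc finger factor, stood at 0.37 ± 0.12, Net1, an exchange factor for RhoA, at 0.35 ± 0.12, and Galnt15, an enzyme of mucin-type glycosylation, at 0.46 ± 0.15 in the authors' deposited table. Nr4a3 was the largest of these. Among genes above the 25th percentile of expression, the larger estimates at an unadjusted p under 0.05 also included Greb1l at 0.73, above Nr4a3. Others were the large cadherin Fat4 at 0.58 ± 0.25 and the collagen Col25a1 at 0.49 ± 0.22 in the authors' deposited table. Greb1l, Fat4 and Col25a1 had p-values just under that bound. Below that percentile, Pde11a, a cyclic nucleotide phosphodiesterase, was listed there at 1.37 ± 0.45, Ccl22, a chemokine, at 1.20 ± 0.36 and Cldn1, a tight junction protein, at 0.97 ± 0.24. Pde11a stood at 1.40 in the cocaine comparison with the shared controls, while Cldn1 stood at 0.47 and Ccl22 at 0.40 there, per the authors' deposited table. Of the genes above the 25th percentile, Greb1l stood at 1.04, Fat4 at 0.65, Col25a1 at 0.56, Nr4a3 at 0.42, Zfp189 at 0.11 and Net1 at 0.02 there.

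The lower genes with small unadjusted p-values were led by globins, then by early response and endothelial genes. Ppp1r15a, which restores translation after stress by recruiting a phosphatase to eIF2 alpha, was listed by the authors' deposited table at -0.31 ± 0.08, with an unadjusted p of 0.00232 in their moderated test and -0.15 in the cocaine comparison. Btg2, an early response gene that restrains proliferation, stood at -0.68 ± 0.18 in the authors' deposited table, 0.624-fold, beside -0.52 for cocaine. Nrgn, a postsynaptic calmodulin-binding protein, and Ddit4l, an inhibitor of mTOR signalling, each stood at -0.57 ± 0.19 in the authors' deposited table. Nrgn was strongly expressed, with a mean log2 expression of 7.14 over the fit. Reln, a secreted protein that guides neurons, stood at -0.49 ± 0.18 and Vgf, a neuropeptide precursor, at -0.22 ± 0.09 in the authors' deposited table. In the cocaine comparison with the shared controls, the authors' deposited table lists Nrgn at -0.43, Ddit4l at -0.69, Reln at -0.24 and Vgf at 0.03. Below the 25th percentile of expression, Trh, the thyrotropin-releasing hormone precursor, stood at -0.57 ± 0.17, the pseudogene Oaz1-ps at -1.19 ± 0.31 and Sfn, 14-3-3 sigma, at -0.49 ± 0.15 in the authors' deposited table.

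**Figure D3:**
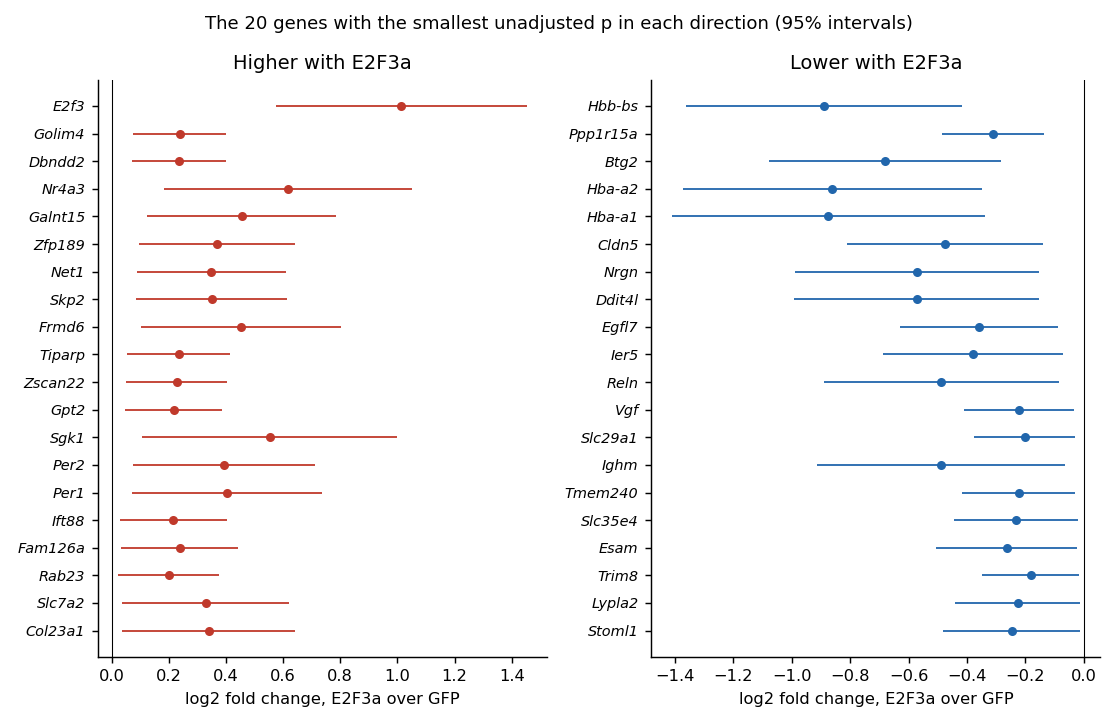
The 20 higher and 20 lower genes of smallest unadjusted p, taken from those expressed above the 25th percentile, as log2 fold change, E2F3a over GFP under saline, in the authors' deposited table. Points are estimates and bars are 95% intervals, which exclude 0 because the genes were picked by p; E2f3 at 1.01 lies farthest from 0 among the higher genes and Hbb-bs at -0.89 among the lower ones.

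Early response genes pointed in both directions. At an unadjusted p under 0.05, 3 of 31 activity-regulated genes were higher and 1 was lower, with a median of -0.05. Over all genes 0.545% were higher and 0.409% lower at that threshold. The 3 higher ones were Nr4a3, Zfp189 and Tiparp, an ADP-ribosyltransferase listed by the authors' deposited table at 0.23 ± 0.08, and the lower one was Vgf. Npas4 and Arc, which depend closely on recent synaptic activity, stood at -0.96 ± 0.45 and -0.70 ± 0.36 in the authors' deposited table, and Egr1 at -0.09 ± 0.25. Of 14 Fos and Jun family genes none passed, with Fos at -0.41 ± 0.22, Junb at -0.32 ± 0.15 and Fosb at 0.06 in the authors' deposited table. Of 30 stress-type early response genes, 5 were lower and 1 was higher at that threshold, beside 0.409% and 0.545% of all genes. Their median was -0.09. The lower ones were Ppp1r15a, Btg2, Ier5 at -0.38 ± 0.14, Sertad1 at -0.38 ± 0.17 and Klf10 at -0.36 ± 0.16, and the higher one was Sgk1, all in the authors' deposited table. In the cocaine comparison with the shared controls the median of the 30 was -0.29, with Ier5 at -0.58 and Sgk1 at 0.16. Sertad1 is known as a coactivator that acts through E2F and DP factors. Of 29 unfolded protein response genes 1 was lower, the shared member Ppp1r15a, while Atf4 stood at -0.13 ± 0.14 and Ddit3 at -0.12 ± 0.12 in the authors' deposited table.

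Clock and glucocorticoid-induced genes held several of the higher estimates. Of 22 clock genes, 17 had an estimate above 0 (77.3%, beside 52.5% over all genes). At an unadjusted p under 0.05, 3 were higher and none was lower, beside 0.545% and 0.409% of all genes. The 3 were the Period genes, the negative limb of the clock, with Per1 at 0.40 ± 0.15, Per2 at 0.39 ± 0.15 and Per3 at 0.35 ± 0.15 in the authors' deposited table. Arntl, which encodes the activator BMAL1 and peaks opposite to the Period genes, stood at -0.18 ± 0.09 there. In the cocaine comparison with the shared controls, the authors' deposited table lists Per1 at 0.49, Per2 at 0.63 and Per3 at 0.53. Of 19 genes in the list of the glucocorticoid receptor and induced genes, 15 lay above 0, 3 passed in the higher direction and the median was 0.22. For the 15 members above the 25th percentile of expression the median was 0.15. The mean of all 19 weighted by precision was 0.14. Of this list, the authors' deposited table gives Sgk1, a kinase of ion transport, at 0.55 ± 0.20, Errfi1, an inhibitor of the EGF receptor, at 0.22 ± 0.09, and Tsc22d3, also known as GILZ, at 0.42 ± 0.19. Dusp1 in the same list stood at -0.29 ± 0.16 and the receptor gene Nr3c1 at 0.06 ± 0.09 in the authors' deposited table. The time of day of dissection is not stated in the labels, and its part in these values was not tested.

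The dopamine-responsive machinery of the accumbens showed no gene past an unadjusted p of 0.05. This held for 30 dopamine receptor and cAMP signalling genes, with 11 above 0 and a median of -0.03, and for 20 medium spiny neuron identity genes, with 7 above 0 and a median of -0.05. Drd1, listed as Drd1a, stood at 0.00 ± 0.29, Drd2 at -0.03 ± 0.34 and Ppp1r1b, the dopamine-regulated phosphatase inhibitor DARPP-32, at -0.15 ± 0.36 in the authors' deposited table. Errors near 0.3 are wide for such strongly expressed genes, and of the 30 dopamine and cAMP genes 11 had an interval within 1.5-fold and 28 within 2-fold. Of the D1 neuron markers 1 of 10 was lower, which was Reln, and of the D2 neuron markers none of 10 passed. Penk and Pdyn, the opioid precursors of D2 and D1 neurons, stood at -0.13 ± 0.32 and 0.07 ± 0.33 in the authors' deposited table. Oprm1, the mu opioid receptor, was listed there at 0.63 ± 0.34. Of 25 opioid and neuropeptide genes, 2 were lower at that threshold, Trh and the somatostatin receptor Sstr2 at -0.41 ± 0.16, and none was higher. Both lay below the 25th percentile of expression, Trh at a mean log2 expression of 1.99 and Sstr2 at 2.52.

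Of 25 interneuron markers, 1 was lower at an unadjusted p under 0.05. It was Slc18a3, the vesicular acetylcholine transporter of cholinergic interneurons, at -0.53 ± 0.18 in the authors' deposited table. Its mean log2 expression of 2.75 lay below the 25th percentile. Chat, whose gene encloses Slc18a3 and which makes acetylcholine in the same cells, stood at -0.12 ± 0.18 there. How reads over the shared span were assigned is not stated in the labels, so the split between the pair is uncertain.

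Synaptic and channel gene lists had medians close to 0. None of 27 ionotropic glutamate receptor genes, 5 metabotropic receptors, 18 GABA receptor subunits, 20 serotonin and acetylcholine receptors, 54 potassium channels, 24 calcium and sodium channels, 39 vesicle release genes or 45 synaptic adhesion genes had an unadjusted p under 0.05. Their medians ran from -0.02 for the metabotropic receptors to 0.09 for the GABA receptor subunits. Single members lay farther out with wide errors, as did the GABA receptor subunit Gabrq at 1.40 ± 1.02, the muscarinic receptor Chrm5 at 1.04 ± 0.65 and the NMDA receptor subunit Grin3a at 0.55 ± 0.38 in the authors' deposited table. The interval lay within 1.5-fold for 9 of the 18 GABA subunits and 5 of the 20 serotonin and acetylcholine receptors. Gria2, the AMPA receptor subunit that sets calcium permeability, stood at 0.14 ± 0.13 and Grin1, the obligate NMDA receptor subunit, at -0.12 ± 0.13 in the authors' deposited table. Of 33 postsynaptic scaffold and kinase genes 1 was lower, which was Nrgn. Of 46 axon guidance genes 33 lay above 0 with a median of 0.11, which was 0.05 with 28 above 0 once the trend with transcript length described below was removed, and the 1 that passed, Reln, was lower. Of 14 neurotrophin and receptor genes 11 lay above 0, with Ntrk2, the BDNF receptor, at 0.31 ± 0.15 in the authors' deposited table, and the 1 that passed was Vgf in the lower direction. With the length trend removed, 9 of the 14 lay above 0 and the median went from 0.10 to 0.03. Of 16 cyclic nucleotide phosphodiesterases 1 passed, Pde11a.

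Chromatin and splicing genes were measured precisely. None of 53 histone and DNA modifying enzymes and none of 58 splicing regulators had an unadjusted p under 0.05. The whole interval lay within 1.5-fold for 48 of the 53 and 52 of the 58. Ehmt1, a histone H3 lysine methyltransferase, stood at 0.18 ± 0.10 in the authors' deposited table. Rbm5, a regulator of exon skipping, stood at 0.19 ± 0.11 and Srsf4, an SR protein, at 0.22 ± 0.13 there. The table holds gene totals only, so exon use was not analysed here.

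Housekeeping sets lay slightly and evenly below 0. Of 77 cytosolic ribosomal protein genes 2 were above 0, of 76 nuclear-encoded respiratory chain genes 1, and of 37 proteasome genes 1, with medians of -0.10, -0.09 and -0.10. None of these genes passed an unadjusted p of 0.05, and 76, 76 and 37 of them had an interval within 1.5-fold either way. Rpl18 of the large ribosomal subunit stood at -0.19 ± 0.15, Ndufb7 of complex I at -0.22 ± 0.11 and Psmb5, the chymotrypsin-like proteasome subunit, at -0.22 ± 0.12 in the authors' deposited table. Transcript length moved with these differences. Over 10 bins of genes by the length of the longest annotated transcript, the median log2 fold change was -0.08 in the second bin, around 1418.5 bases, and 0.11 in the last, around 8257 bases. The share of genes above 0 went from 27.9% to 84.0% between those bins. The rank correlation across 14584 genes was 0.34 with length and -0.19 with GC content, as a description of genes that share the same 8 libraries. The median transcript length of the ribosomal list was 1094 bases, that of the respiratory list 1093.5 and that of the proteasome list 1883. With the length trend removed their medians were -0.04, -0.03 and -0.03, and those of the replication and mitosis lists were -0.09 and -0.30. Several lists of longer transcripts with a median above 0 also came closer to 0, axon guidance from 0.11 to 0.05, GABA receptor subunits from 0.09 to 0.01, oligodendrocyte precursors from 0.16 to 0.06 and fibroblast genes from 0.14 to 0.07. The median of the stress-type early response genes went from -0.09 to -0.05 and that of the border macrophage genes from -0.19 to -0.12. The part of transcript length in the differences was not tested. In the cocaine comparison with the shared controls, the medians of the ribosomal, respiratory and proteasome lists were -0.30, -0.17 and -0.21.

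**Figure D4:**
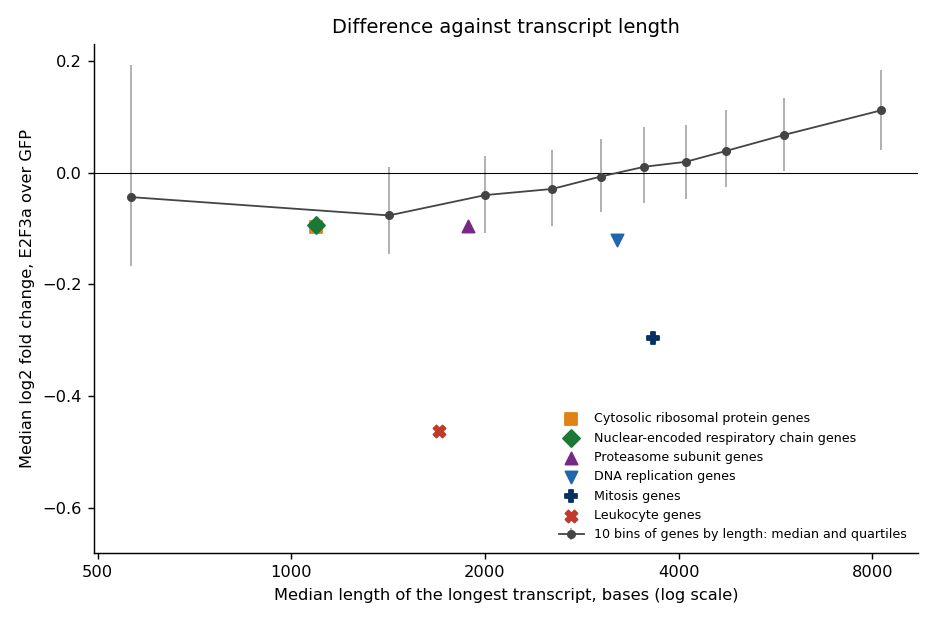
Median log2 fold change, E2F3a over GFP under saline, in the authors' deposited table against transcript length in bases on a log axis. Dark points and bars are the medians and quartiles of 10 bins of genes, which run from -0.08 in the second bin to 0.11 in the last; coloured symbols are the medians of 6 gene lists at their median length, of which the mitosis list at -0.30 and the leukocyte list at -0.46 lie well below the line.

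Markers of the labelled region and of other cell types were read beside these values. All 9 accumbens markers were in the table, at 32.5 to 668 units of 2 to the mean log2 expression per kilobase of transcript, against 0.733 to 2.47 for the 2 cortical markers listed of 4. These levels are means over the authors' fit and not per mouse. The 2 cortical markers had errors too wide to give a direction, Slc17a7 at 0.73 ± 1.22 and Tbr1 at 0.66 ± 0.95 in the authors' deposited table. In the longer list of 16 cortical neuron markers, 9 lay above 0 and 7 below, with a median of 0.04, or -0.02 for the members above the 25th percentile of expression, and the 1 past the threshold, Nrgn, was lower.

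Red cell genes were the lowest list. Of 6 measured, 5 had an unadjusted p under 0.05, all in the lower direction, beside 0.409% of all genes. The median was -0.87. The mean weighted by precision was -0.46, since Bpgm, a red cell glycolytic enzyme that other cells also make, stood at 0.02 ± 0.12 in the authors' deposited table. Hbb-bs, an adult beta globin, stood at -0.89 ± 0.21, Hba-a1, an alpha globin, at -0.87 ± 0.24 and Alas2, the red cell enzyme of haem synthesis, at -0.64 ± 0.24 in the authors' deposited table. Of the 125-base stretches of Hba-a1, 50.6% also occur in Hba-a2, and of those of Hbb-bs 60.7% occur in another globin, so counts of single globin copies are uncertain. Of 27 leukocyte genes 2 were above 0, 2 were lower at that threshold and the median was -0.46. Ighm, the heavy chain of IgM, stood at -0.49 ± 0.19, Cd79b, the signalling chain of the B cell receptor, at -0.60 ± 0.26 and Ptprc, the leukocyte antigen CD45, at -0.26 ± 0.36 in the authors' deposited table. In the cocaine comparison with the shared controls Hbb-bs stood at -1.54 and Ighm at -0.96, per the authors' deposited table. The red cell, leukocyte and mitosis lists thus lay below 0 against the same GFP saline libraries. The part of blood or of leukocytes in the tissue in the other differences was not tested.

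Endothelial genes were divided. Of 37 measured, 4 were lower and none higher at an unadjusted p under 0.05, beside 0.409% and 0.545% of all genes. The median was -0.03. The 4 were Cldn5, the tight junction protein of the blood-brain barrier, at -0.47 ± 0.15, Egfl7, a secreted vessel factor, at -0.36 ± 0.12, Esam, a junction adhesion molecule, at -0.26 ± 0.11 and Edn1, endothelin, at -0.44 ± 0.20 in the authors' deposited table. Pecam1 and Cdh5, which define the same cells, stood at -0.07 ± 0.13 and 0.01 ± 0.20 there. In the cocaine comparison with the shared controls the median of the 37 was -0.19. The authors' deposited table lists Cldn5 at -0.59, Egfl7 at -0.43 and Esam at -0.33 in that comparison. Of 18 pericyte and smooth muscle genes 1 was higher, Myh11, the smooth muscle myosin, at 0.63 ± 0.23, with Acta2 at 0.50 ± 0.34 in the authors' deposited table.

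Most glial lists had a median above 0, with few genes past the threshold. Of 35 myelin genes 26 were above 0 with a median of 0.13, and 1 was higher at an unadjusted p under 0.05, which was Dbndd2. Mbp, myelin basic protein, stood at 0.13 ± 0.24 in the authors' deposited table. None of 17 oligodendrocyte precursor markers, 28 resting astrocyte markers, 30 reactive astrocyte genes, 26 microglia genes, 42 interferon and antigen presentation genes or 33 fibroblast genes passed, and their medians ran from -0.02 for microglia to 0.16 for precursors. Slc1a3, an astrocyte glutamate transporter, stood at 0.29 ± 0.13 and Serpina3n, a marker of reactive astrocytes, at 0.33 ± 0.28 in the authors' deposited table. Of the neural progenitor genes of the subventricular zone none of 23 passed, with Dcx, a neuroblast marker, at 0.41 ± 0.20 there. Ependymal and choroid genes had the highest median of the 54 lists, 0.36, with 11 of 12 above 0 and none past the threshold. Foxj1, the master regulator of motile cilia, stood at 0.45 ± 0.26 in the authors' deposited table, and Ttr and Folr1, which define choroid plexus, had no row in it.

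**Figure D5:**
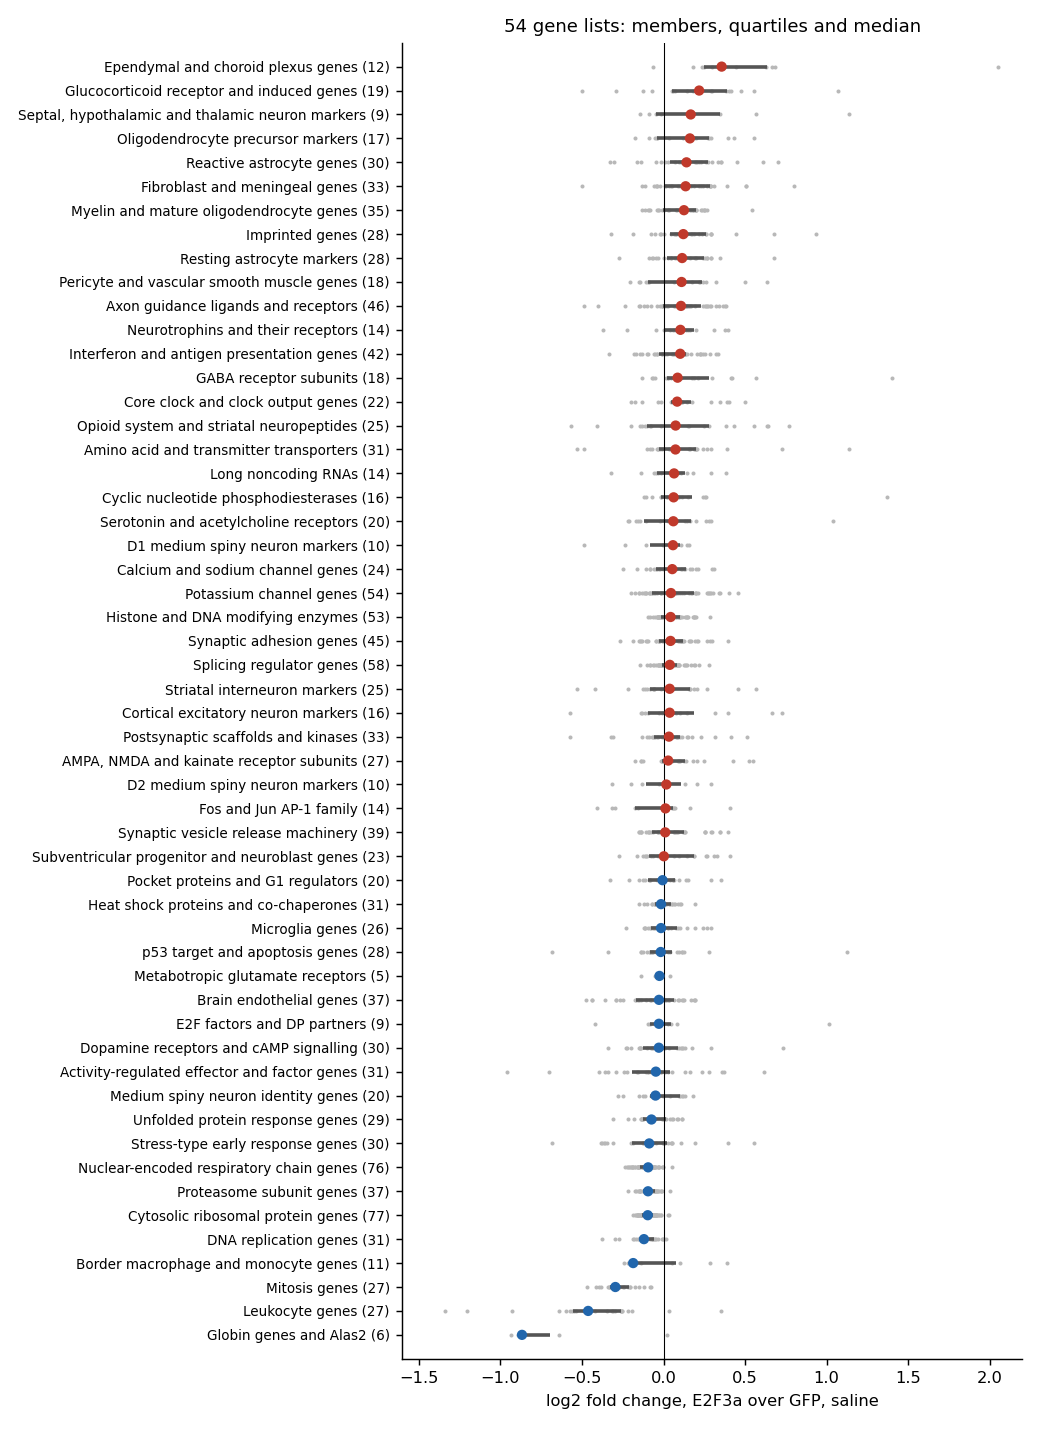
Log2 fold changes, E2F3a over GFP under saline, in the authors' deposited table for the members of 54 gene lists, with the number measured in parentheses. Grey points are genes, bars the quartiles and large points the median, red above 0 and blue below; ependymal genes have the highest median at 0.36 and globin genes the lowest at -0.87.

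The remaining lists added few genes. Of 28 p53 target and apoptosis genes, which E2F factors can feed into in dividing cells, 1 was lower, the shared member Btg2, and the median was -0.02. Bbc3, the death effector PUMA, stood at -0.34 ± 0.17 and Bax at -0.14 ± 0.11 in the authors' deposited table. Of 31 transmitter and amino acid transporters 1 was lower, Slc18a3, with a median of 0.07. None of 31 heat shock genes, 11 border macrophage genes, 9 septal, hypothalamic and thalamic markers or 14 long noncoding RNAs passed, and their medians were -0.02, -0.19, 0.17 and 0.06.

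Over all 54 lists, 1417 distinct genes were measured, of which 14 in the higher and 22 in the lower direction had an unadjusted p under 0.05. Over the whole table these counts were 80 (0.545%) and 60 (0.409%) of 14667 genes. The lists were chosen with earlier results of these data known, so their counts are a description only. Of the lists, 34 had a median above 0 and 20 below, and 32 held no gene past that threshold. By gene type, 0.806% of 13270 protein-coding genes passed it, none of 250 long intergenic RNAs, and 5.39% of 167 miRNA genes, whose median standard error was 0.610.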

How the data were processed

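Libraries were made from poly-A RNA of dissected nucleus accumbens, with tissue of 1 mouse each, by a TruSeq v2 kit that does not mark strand, per the labels' protocols. The tools named in the submitters' processing notes are TopHat2 2.0.9, Bowtie2 2.1.0 and HTSeq 0.6.0, with the mm10 build, and no source used here gives the normalization, the filter or the test program. The authors deposited comparison statistics per gene: log2 fold change and mean log2 expression, t and log odds as score columns, and an unadjusted and an adjusted p-value, per the file headers. Depth per sample is unknown, so precision is known only from the t statistics.

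The deposited statistics were used without a refit. Each standard error is a log2 fold change over its t, and 95% intervals use the 11.29 degrees of freedom that the deposited p-values imply. The adjusted p-values equal a Benjamini-Hochberg adjustment over 14667 genes. Deposited mean expression is the same in both of the authors' tables, so the fit behind them is shared, and 2 raised to it sums to 986624, near what CPM values give. Groups came from the sample titles, and p-values measure the spread between these mice.

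Named genes were E2f3, the 20 genes of smallest unadjusted p in each direction above the 25th percentile of expression, the 8 of largest size in each direction among those with an unadjusted p under 0.05 there, the 5 of smallest p in each direction below it, and from each of 54 lists up to 4 members of smallest p and 3 of highest expression. A few defining members of a list are named besides. Members, lists and rules were chosen with earlier results of these data known. Of 1633 list entries 1496 were measured; of 11 symbols on 2 rows the row with the higher expression was used. Transcript lengths and GC came from GENCODE M21 for 14584 genes (99.4%), and promoter sequences from RefSeq. Computations used Python 3.11.15, pandas 2.3.3, scipy 1.17.1 and statsmodels 0.14.6 and were tested on simulated data.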

Additional observations from a re-analysis of the deposited data

How the results depend on the processing

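The number of genes called at an adjusted p of 0.05 was 0 as deposited, at an adjusted p of 0.1, and after adjusting over the genes above the 25th percentile or above the median of expression, while 140 genes had an unadjusted p under 0.05 in the authors' moderated test. Those 140 were 69 above the 25th percentile, 86 with a fold above 1.3 and 17 at an unadjusted p under 0.01. The 80 higher genes were 43, 46 and 6 under the same settings, and the 60 lower genes were 26, 40 and 11. The globin list went from a median of -0.87 to a precision-weighted mean of -0.46. The expression, fold and unadjusted p settings test or keep fewer genes by construction, while the weighted mean keeps all 6 genes of the globin list. E2f3 stood at 1.01 also after centring. Of 54 lists, 34 had a median above 0 as deposited, 33 after centring, 32 as weighted means, and 27 and 33 after removing the length and GC trends, settings added after seeing the data. No paired analysis was possible because the deposited tables hold no value per library. For the same reason leaving out each mouse, another normalization and count tests were not run, so whether 1 library carries a value is unknown.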

Other observations

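Gene types outside the lists gave a few further values. The 9 immunoglobulin constant genes and 6 genes annotated as the class IG_LV each held 2 lower at an unadjusted p under 0.05. These counts come from the authors' deposited table, where 0.409% of all genes were lower at that threshold. The IG_LV genes had a median log2 fold change of -2.65, with a median standard error of 1.53 and a median log2 expression of -4.30. For the constant genes these medians were -1.08, 0.721 and 0.84. Both median expressions lay below the 25th percentile of 3.21. None of 11 T cell receptor variable genes had an estimate above 0. Their median standard error was 0.456 and their median log2 expression -1.73. Imprinted genes, expressed from 1 parental copy, lay mostly above 0, with 22 of 28 and a median of 0.12, and none passed an unadjusted p of 0.05. With the length trend removed, 18 lay above 0 with a median of 0.11, and the precision-weighted mean as deposited was 0.06.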
